A study of Mus musculus with 23 samples.

Results

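The genes described here mark the bile duct epithelium of the liver and the immature, progenitor-type cells that appear beside it: Krt7, Krt19, Krt23, Epcam, Cd24a, Sox9 and Spp1. All probe sets that the array annotation gives to 1 of these genes alone were taken, which gave 11 of 34945 single-gene probe sets and 6 of 18193 genes. Krt7, Krt19 and Krt23 had 1 probe set each, Epcam had 2, Cd24a and Sox9 had 3 each, and Spp1 was not analysed here. The RNA came from livers of male C3H mice and was measured on 23 Affymetrix arrays. The mutant mice carried Alb-Cre, in which the albumin promoter drives Cre recombinase in hepatocytes, together with loxP sites around exons 3 and 6 of Ctnnb1, the gene of beta-catenin. Both transgenes had been bred onto the C3H/N background. The 4 groups were knockout livers after 12 weeks on a diet with 0.05% phenobarbital (KO with phenobarbital, 7 arrays), knockout livers without it (KO without phenobarbital, 7 arrays), wild-type livers with it (WT with phenobarbital, 4 arrays) and wild-type livers without it (WT without phenobarbital, 5 arrays). The labels name water as the vehicle of the last group of each genotype, whereas the treatment protocol speaks of a diet free of phenobarbital. The Cre and loxP status of the wild-type mice, the age of the animals and whether each array stands for 1 mouse are not given in the sources used here. A p-value here is therefore set by the spread among arrays, part of which may be technical.

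Bile ducts are lined by cholangiocytes, a simple epithelium held together by cell adhesion molecules and by keratins that hepatocytes largely lack. In injured liver, cells with these markers multiply or arise along the portal tracts, a change called the ductular reaction, and some of them also carry markers of bipotent progenitor cells. Beta-catenin is the effector of Wnt signalling and sets the perivenous gene programme of hepatocytes, and phenobarbital activates the nuclear receptor CAR and is a liver tumour promoter in mice. Krt7 and Krt19 are keratins of the duct cell's filament network, and Krt23 is a keratin that is low in resting mouse liver and known as a marker of liver stress. Epcam is an adhesion molecule of epithelia, Cd24a a small surface glycoprotein of immature and epithelial cells that many blood cells carry too, and Sox9 a transcription factor of the biliary lineage.

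The 250 bases upstream of the annotated start were available for 3 of the 6 measured genes (RefSeq, GRCm38.p6). They are shown because Epcam was among the genes that rose in knockout liver, whereas Krt7 and Krt23 stayed near or below the level at which a gene was tested. Each runs 5′ to 3′ and ends next to the start, and capitals mark the word ATAAAA, which resembles the core promoter element known as the TATA box.
Epcam, chr17:87635729-87635978, plus strand: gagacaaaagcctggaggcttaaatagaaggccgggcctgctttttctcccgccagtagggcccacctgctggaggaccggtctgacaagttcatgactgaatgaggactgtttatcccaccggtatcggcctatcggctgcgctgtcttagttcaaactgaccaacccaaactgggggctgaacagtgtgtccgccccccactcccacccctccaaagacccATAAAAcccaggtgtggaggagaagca
Krt7, chr15:101412153-101412402, plus strand: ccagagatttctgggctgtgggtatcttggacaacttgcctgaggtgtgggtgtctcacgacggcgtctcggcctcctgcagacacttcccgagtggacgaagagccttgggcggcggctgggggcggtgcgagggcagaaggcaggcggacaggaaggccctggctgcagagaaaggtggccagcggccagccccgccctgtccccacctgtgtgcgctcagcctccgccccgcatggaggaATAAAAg
Krt23, chr11:99493121-99493370, minus strand: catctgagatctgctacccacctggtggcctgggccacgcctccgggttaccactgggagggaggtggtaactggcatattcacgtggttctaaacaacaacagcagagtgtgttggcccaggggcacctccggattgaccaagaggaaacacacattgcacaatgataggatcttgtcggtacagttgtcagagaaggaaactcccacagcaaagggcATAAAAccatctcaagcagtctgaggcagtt
The word ATAAAA was chosen after these windows had been read, and it stood on the gene's own strand in each of them, 27 to 22 bases before the start of Epcam, 31 to 26 before that of Krt23 and 7 to 2 before that of Krt7. Searched on both strands, it occurred in 17.0% of 32851 annotated mouse promoter windows of the same length. Also searched on both strands were the TCF/LEF word CTTTGTT with its variants that end in AT, TA or AA (present in 14.8% of all windows), the RBPJ word GTGGGAA of Notch signalling (5.42%) and the TEAD word GGAATG of YAP signalling (12.6%). None of these letters occurred in the 3 windows.

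Array medians lay between 5.09 and 5.14 on the log2 scale, and a gene was tested when its probe set exceeded the 40th percentile of the array (4.56 on average) on at least 4 arrays, which 13826 genes did. The 10 perivenous beta-catenin targets were all lower in KO than in WT livers in both diets, with a mean level per array of 5.96 to 6.68 in the KO arrays and 9.39 to 10.15 in the WT arrays. The 3 probe sets of Ctnnb1 do not check the labels, because their position relative to the deleted exons was not known, and its brightest one, 1420811_a_at, read 12.08 to 12.42 in the KO arrays and 12.03 to 12.23 in the WT arrays. The mean of 12 hepatocyte markers was between 13.07 and 13.29 on every array. Within each knockout group some arrays stood apart from the rest along the first principal component of all tested genes other than the markers, which held 61.9% of the variance with phenobarbital and 70.3% without. The component's sign was set so that it rose with the mean of 19 macrophage markers. At its positive end lay KO arrays 4, 5 and 7 with phenobarbital and KO arrays 2, 6 and 7 without. On the latter diet KO array 1 lay between them and arrays 3, 4 and 5. There the negative end was about as far out, with arrays 3, 4 and 5 at -30.4, -31.6 and -32.3. Arrays 2, 6 and 7 lay at 20.1, 33.9 and 43.2. Results that rest on the arrays at the positive end are given with and without them. Choosing those arrays used measured values, so fits without them were added after the data had been seen.

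Cd24a was the marker with the most marked difference between genotypes. Its probe set 1448182_a_at, the brightest of 3, read between 5.71 and 7.35 with a median of 6.42 in KO livers with phenobarbital, and 5.21, 5.09, 5.26 and 4.73 in WT livers with phenobarbital. Without phenobarbital it read between 5.90 and 7.96 with a median of 6.71 in KO livers, and 5.34, 5.04, 5.08, 5.52 and 5.28 in WT livers. In both diets every KO array lay above every WT array. The group means were 6.51 ± 0.59 (SD, n = 7) in KO livers with phenobarbital, 6.75 ± 0.85 (SD, n = 7) in KO livers without it, 5.07 ± 0.24 (SD, n = 4) in WT livers with it and 5.25 ± 0.20 (SD, n = 5) in WT livers without it.

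Tested with limma over all 13826 genes with Benjamini-Hochberg adjustment, Cd24a was higher in KO than in WT livers by 1.44 on the log2 scale (SE 0.35, adjusted p = 0.00618) with phenobarbital and by 1.50 (SE 0.33, adjusted p = 0.00251) without it. When KO arrays 2, 6 and 7 were left out, the difference on the phenobarbital-free diet was 0.87 (limma, adjusted p = 0.0354, over all alternatives 0.00110 to 0.0354). That fit kept KO array 1, which read 6.71, beside KO arrays 3, 4 and 5, which read 5.90, 5.90 and 5.98. Without KO arrays 2, 6 and 7 of that diet and KO arrays 4, 5 and 7 of the other, the difference with phenobarbital was 1.05 (limma, adjusted p = 0.000744, over all alternatives 0.000217 to 0.0473). The arrays left out read highest in Cd24a in their groups, and the SE of that difference was 0.19 in place of 0.35. The p-values without them therefore do not measure the spread of the full groups. The call for Cd24a held in each of the 34 alternative settings of both comparisons.

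**Figure D1:**
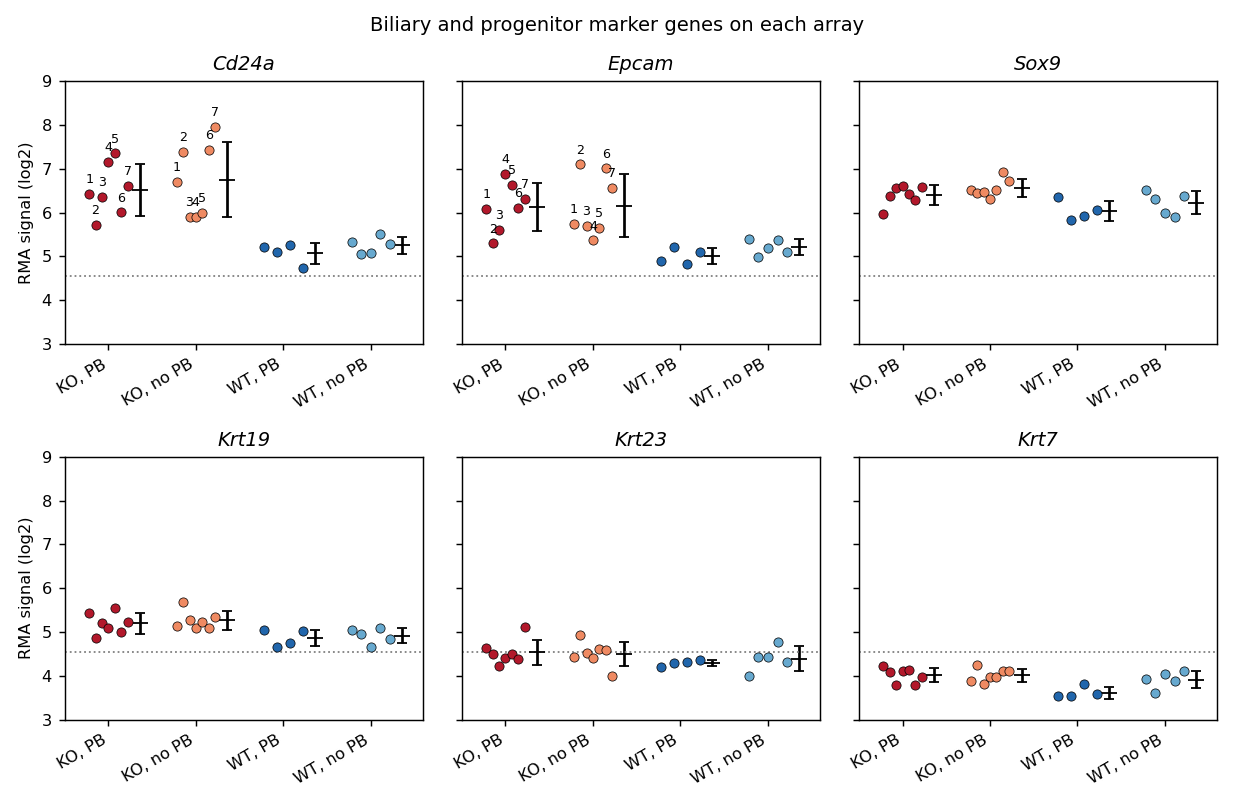
RMA signal (log2) of the 6 measured marker genes on each of the 23 arrays, by group (KO, knockout; PB, phenobarbital); each point is an array, numbered in the KO groups for Cd24a and Epcam, the bars give the mean and SD of the group, and the dotted line is the mean filter level of 4.56. All KO points of Cd24a lie above the WT points of the same diet, those of Sox9 and Krt19 overlap them, and Krt7 stays under the line on all arrays.

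Epcam, the adhesion molecule, was the other marker that was higher in knockout liver in both diets. Its probe set 1416579_a_at read between 5.30 and 6.89 with a median of 6.10 in KO livers with phenobarbital, against 4.89, 5.21, 4.82 and 5.10 in WT livers with phenobarbital. Without phenobarbital it read between 5.36 and 7.10 with a median of 5.74 in KO livers, against 5.40, 4.996, 5.18, 5.37 and 5.10 in WT livers. The groups did not overlap with phenobarbital, and without it 6 of 7 KO arrays lay above the highest WT array. The means were 6.13 ± 0.55 (SD, n = 7) in KO livers with phenobarbital, 6.16 ± 0.71 (SD, n = 7) in KO livers without it, 5.005 ± 0.18 (SD, n = 4) in WT livers with it and 5.21 ± 0.17 (SD, n = 5) in WT livers without it.

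The difference between KO and WT livers in Epcam was 1.12 on the log2 scale (SE 0.30, limma, adjusted p = 0.0128) with phenobarbital and 0.95 (SE 0.28, limma, adjusted p = 0.0197) without it. On the phenobarbital-free diet it came to 0.40 without KO arrays 2, 6 and 7 and no longer passed the test (limma, adjusted p = 0.287, over all alternatives 0.00746 to 0.287). The call on that diet was also lost with array weights (0.64, limma, adjusted p = 0.0690). Without KO arrays 2, 6 and 7 of that diet and KO arrays 4, 5 and 7 of the other, the difference with phenobarbital was 0.77 (limma, adjusted p = 0.00236, over all alternatives 0.000604 to 0.0765). These arrays were also the highest of their groups in Epcam, and the SE of that difference was 0.16 in place of 0.30. Its smaller p-value therefore does not measure the spread of the full groups. Averaged over both Epcam probe sets, the difference was 0.56 with phenobarbital and 0.52 without it, and both were still called.

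Krt19, the classical duct keratin, differed less. With phenobarbital it read between 4.86 and 5.54 with a median of 5.21 in KO livers and 5.04, 4.66, 4.75 and 5.02 in WT livers, and 5 of 7 KO arrays exceeded the highest WT array. Without phenobarbital it read between 5.09 and 5.69 with a median of 5.23 in KO livers and 5.04, 4.95, 4.65, 5.10 and 4.84 in WT livers, where 6 of 7 KO arrays exceeded the highest WT array. The difference with phenobarbital was 0.33 (SE 0.13, limma, adjusted p = 0.0682), which missed the threshold, and without it the KO livers were higher by 0.35 (SE 0.12, limma, adjusted p = 0.0355). The difference with phenobarbital was called with array weights (limma, adjusted p = 0.0374), without KO array 2 of that diet (0.0302) and without KO array 2 (0.0441) or 2, 6 and 7 (0.0365) of the other diet, and its adjusted p ranged from 0.0302 to 0.202 over all alternatives. The call without phenobarbital was lost when KO array 2 (limma, adjusted p = 0.0762) or 7 (0.0590) was left out, and likewise for WT array 2 (0.0574), 3 (0.108) or 5 (0.0722) of the same diet. It was also lost without KO arrays 2, 6 and 7 (0.26, limma, adjusted p = 0.185), and its adjusted p ranged from 0.0262 to 0.185 over all alternatives.

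Sox9, the transcription factor, showed differences of the same size that did not pass the test. With phenobarbital its probe set 1451538_at averaged 6.40 ± 0.23 (SD, n = 7) in KO livers and 6.04 ± 0.22 (SD, n = 4) in WT livers, a difference of 0.36 (SE 0.14, limma, adjusted p = 0.0674). Without phenobarbital it averaged 6.56 ± 0.21 (SD, n = 7) in KO livers and 6.22 ± 0.26 (SD, n = 5) in WT livers, a difference of 0.34 (SE 0.13, limma, adjusted p = 0.0571). The groups overlapped in both diets. Leaving out a single array moved the difference past the threshold for KO array 4, WT array 1 and KO array 1 with phenobarbital in the comparison without phenobarbital (limma, adjusted p = 0.0344, 0.0327 and 0.0383, over all alternatives 0.0327 to 0.321). In the comparison with phenobarbital the same happened without KO array 1 (limma, adjusted p = 0.0219), WT array 1 (0.0392) and KO array 6 of the other diet (0.0500), as well as with array weights (0.0369) and without KO arrays 2, 6 and 7 of the other diet (0.0417).

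The stress keratin Krt23 lay at the edge of measurement. It exceeded the filter level on 2 of 7 KO arrays with phenobarbital, 3 of 7 KO arrays without it, 0 of 4 WT arrays with it and 1 of 5 WT arrays without it. It averaged 4.54 ± 0.28 (SD, n = 7) in KO livers with phenobarbital, 4.50 ± 0.28 (SD, n = 7) in KO livers without it, 4.29 ± 0.07 (SD, n = 4) in WT livers with it and 4.39 ± 0.28 (SD, n = 5) in WT livers without it. The difference between KO and WT livers was 0.25 (SE 0.15, limma, adjusted p = 0.264) with phenobarbital and 0.11 (SE 0.14, limma, adjusted p = 0.615) without it.

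Krt7 was below the filter level on all 23 arrays and was not tested. It averaged 4.02 ± 0.17 (SD, n = 7) in KO livers with phenobarbital, 4.02 ± 0.15 (SD, n = 7) in KO livers without it, 3.62 ± 0.13 (SD, n = 4) in WT livers with it and 3.91 ± 0.19 (SD, n = 5) in WT livers without it. With no filter, over 18193 genes, its difference between KO and WT livers was 0.40 with phenobarbital (SE 0.10, limma, adjusted p = 0.00884) and 0.10 without it (limma, adjusted p = 0.457). Both values lie in the range where the array gave no signal above the filter level.

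With phenobarbital, 2 of the 5 tested marker genes were called higher in KO than in WT livers, where 20.0% of all tested genes were called changed and 11.9% called higher. Without phenobarbital 3 of the 5 were called higher, where 25.0% of all tested genes were called changed and 14.8% called higher. Groups that did not overlap occurred for 2 of the 5 with phenobarbital, against 18.6% of all tested genes, and for 1 of the 5 without it, against 10.6%. All 5 differences were above 0 in both comparisons and in each alternative setting that tested the gene. Their median was 0.36 with phenobarbital and 0.35 without it, against 0.00 for all tested genes in either comparison. The call without phenobarbital was kept, when KO arrays 2, 6 and 7 were left out, by Cd24a alone, 1 of 5, where 11.1% of all genes were called. In whole liver, more cells of a type and more RNA per cell cannot be told apart.

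**Figure D2:**
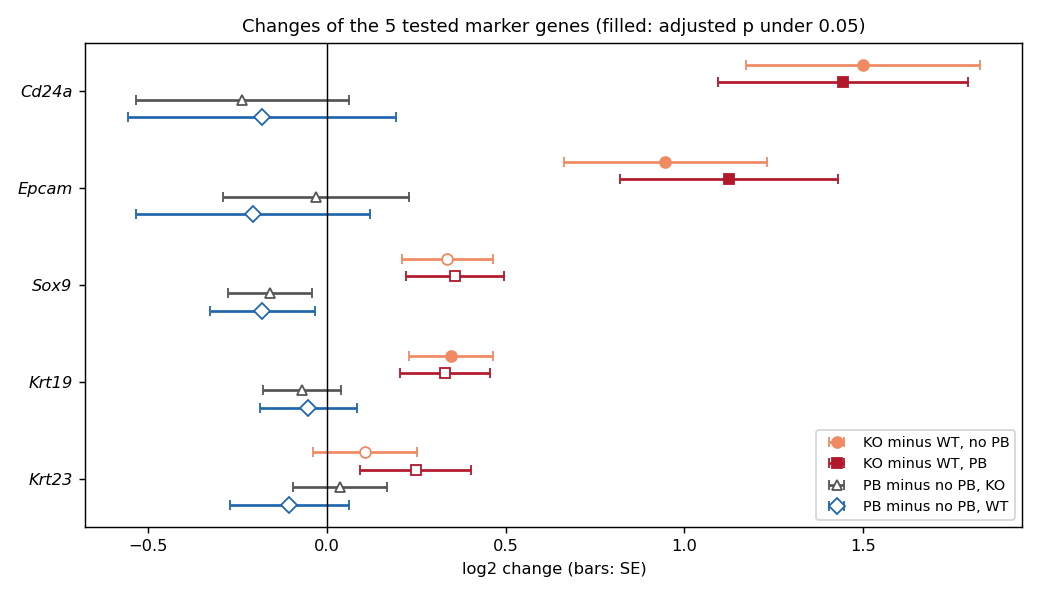
Log2 changes of the 5 tested marker genes in 4 comparisons (limma; points, log2 change; bars, SE; filled points have an adjusted p under 0.05). The differences between KO and WT lie to the right of 0 for each gene and are widest for Cd24a and Epcam, while the phenobarbital changes within a genotype lie close to 0, between -0.24 and 0.04.

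Phenobarbital moved none of the markers past the threshold in either genotype. In KO livers, with phenobarbital minus without it, Cd24a changed by -0.24 (SE 0.30), Epcam by -0.03 (SE 0.26), Krt19 by -0.07 (SE 0.11), Sox9 by -0.16 (SE 0.12) and Krt23 by 0.04 (SE 0.13), with adjusted p from 0.579 to 0.976 in limma. In WT livers the changes were -0.18 (SE 0.37) for Cd24a, -0.21 (SE 0.33) for Epcam, -0.05 (SE 0.14) for Krt19, -0.18 (SE 0.15) for Sox9 and -0.10 (SE 0.17) for Krt23, with adjusted p from 0.647 to 0.929 in limma. Of all tested genes, 2.05% were called changed by phenobarbital in KO livers and 3.85% in WT livers. By limma, 0 of 5 markers had an unadjusted p under 0.05 in either genotype. The difference in phenobarbital effect between KO and WT livers was called for 0 of 5 markers and for 0.875% of all tested genes, and 0 of 5 had an unadjusted p under 0.05 in limma. In the order of the group means the 2 knockout groups stood above the 2 wild-type groups for Cd24a, Epcam, Krt19, Sox9 and Krt23, and the 2 groups of a genotype were not told apart. Without KO arrays 2, 6 and 7 of the phenobarbital-free diet, Cd24a and Epcam were 0.39 and 0.52 higher with phenobarbital in KO livers, and neither passed the test in limma. That removal took the highest arrays of both genes from the untreated group alone. With KO arrays 4, 5 and 7 of the phenobarbital diet left out too, the changes were 0.0021 and 0.16.

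Cd24a and Epcam were each read by more than 1 tested probe set. In KO against WT livers with phenobarbital the differences of the Cd24a probe sets 1448182_a_at and 1416034_at were 1.44 and 0.72, of which the second missed the threshold (limma over 24089 probe sets, adjusted p = 0.117). Without phenobarbital both were called higher in KO livers, by 1.50 and 0.99. In the values of 1416034_at the KO and WT arrays overlapped in both diets. Probe set 1437502_x_at exceeded the filter level on 6 of 7 KO arrays with phenobarbital, 7 of 7 without, and 0 WT arrays, so its difference has no measured size. It read 4.09 to 6.60 in KO livers with phenobarbital and 4.71 to 7.11 in KO livers without it, against 3.80 to 4.25 in WT livers with it and 4.11 to 4.45 in WT livers without it. The values of the 3 Cd24a probe sets, taken as deviations from the group means over 23 arrays, correlated pairwise with r between 0.88 and 0.95. By contrast the second Epcam probe set, 1447899_x_at, differed by -0.01 with phenobarbital and by 0.09 without it between KO and WT livers, and it correlated with 1416579_a_at at r = 0.39. The suffix x marks a probe set whose probes may match other transcripts.

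Sox9 probe sets 1451538_at and 1424950_at correlated at r = 0.66, and 1424950_at differed between KO and WT livers by 0.20 with phenobarbital and by 0.30 without it, both short of the threshold, while 1433889_at was below the filter level on all arrays. Across the 9 tested probe sets, 3 were called higher in KO livers with phenobarbital, where 10.2% of all 24089 probe sets were, and 5 without phenobarbital, where 12.8% were. Both counts include 1437502_x_at, which passed the filter through KO arrays alone.

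**Figure D3:**
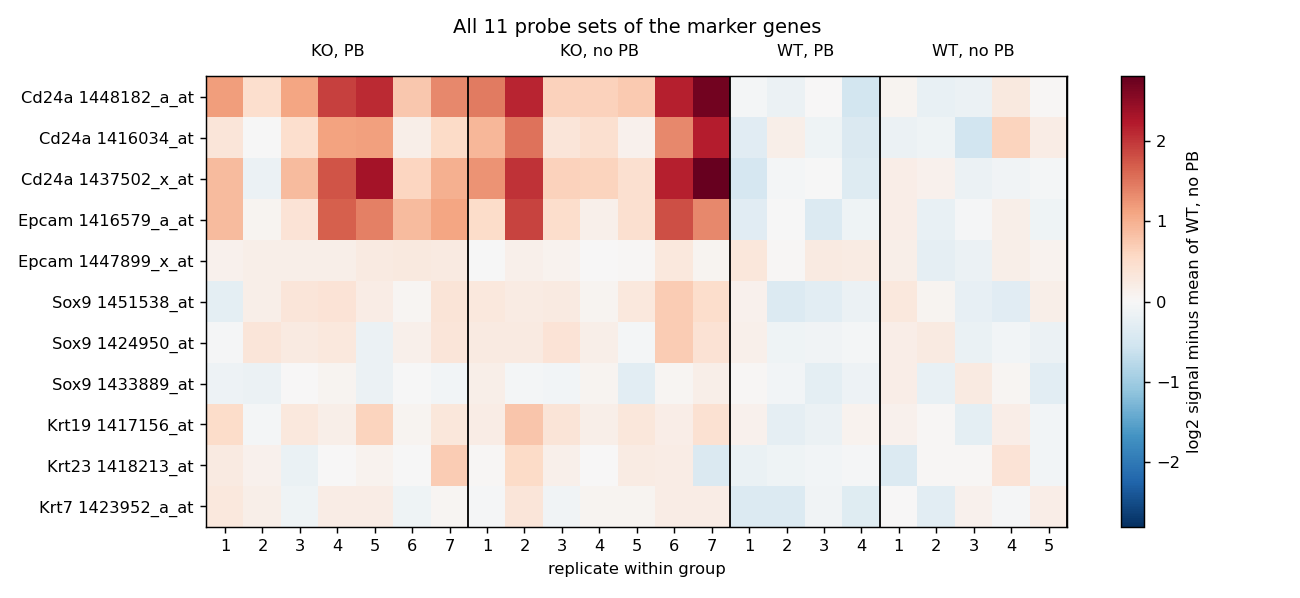
Log2 signal of the 11 probe sets on each array minus the mean of the 5 WT arrays without phenobarbital (colour scale; red above, blue below), with arrays in columns by group and replicate number. The 3 Cd24a probe sets and Epcam 1416579_a_at are darkest on KO arrays 4, 5 and 7 with phenobarbital and on KO arrays 2, 6 and 7 without, and Epcam 1447899_x_at is pale throughout.

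The KO arrays spread widely in 2 of the markers. The SD of Cd24a was 0.59 among KO arrays with phenobarbital and 0.85 among those without, against 0.24 and 0.20 among the WT arrays of the same diets. That of Epcam was 0.55 and 0.71 in KO livers, against 0.18 and 0.17 in WT livers. Of all tested genes, 96.9% and 97.0% had a smaller SD than Cd24a in the KO groups with and without phenobarbital, and 96.5% and 95.6% had a smaller SD than Epcam. Krt19, Krt23 and Sox9 had SDs between 0.21 and 0.28 in the KO groups, where the median gene had 0.14 with phenobarbital and 0.16 without.

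Cd24a read 6.42, 5.71, 6.36, 7.16, 7.35, 6.00 and 6.60 on KO arrays 1 to 7 with phenobarbital, and 6.71, 7.38, 5.90, 5.90, 5.98, 7.43 and 7.96 on those without. Epcam read 6.09, 5.30, 5.60, 6.89, 6.62, 6.10 and 6.32 on the same arrays with phenobarbital, and 5.74, 7.10, 5.70, 5.36, 5.65, 7.01 and 6.55 on those without. In both genes the highest 3 arrays were 4, 5 and 7 with phenobarbital and 2, 6 and 7 without. These are also the 3 at the positive end of the first principal component. The same 3 arrays of each group were highest in the mean of 19 macrophage markers, 14 stellate cell and scar markers and 10 proliferation markers. For the macrophage markers that follows in part from the component's sign, which was set by them. Krt19, Krt23 and Sox9 had other arrays among their highest 3 in both diets, those of Krt19 being 5, 1 and 7 with phenobarbital and 2, 7 and 3 without. Krt7, which stayed below the filter level, was highest on arrays 2, 6 and 7 without phenobarbital but on arrays 1, 5 and 4 with it.

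The macrophage mean ran from 6.79 to 8.74 in KO livers with phenobarbital and from 6.91 to 9.21 in KO livers without it, against 6.23 to 6.39 in WT livers with it and 6.27 to 6.77 in WT livers without it. Of its 19 tested genes 12 were called higher in KO livers with phenobarbital and 14 without, among them Lyz2, the lysozyme of myeloid cells, by 2.06 and 2.55 (limma, adjusted p = 0.0348 and 0.00593), and only Itgam of the 20 listed was below the filter. The share of all tested genes called higher was 11.9% and 14.8%. On KO arrays 3, 4 and 5 without phenobarbital, the macrophage mean was 6.91 to 6.99 and Cd24a read 5.90 to 5.98, against highest values of 6.77 and 5.52 on the WT arrays of that diet. That holds for the brightest Cd24a probe set. On 1416034_at the same KO arrays read 5.08, 5.18 and 4.85, under the highest WT value of 5.35. The part of other cell types in the Cd24a and Epcam values was not tested.

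**Figure D4:**
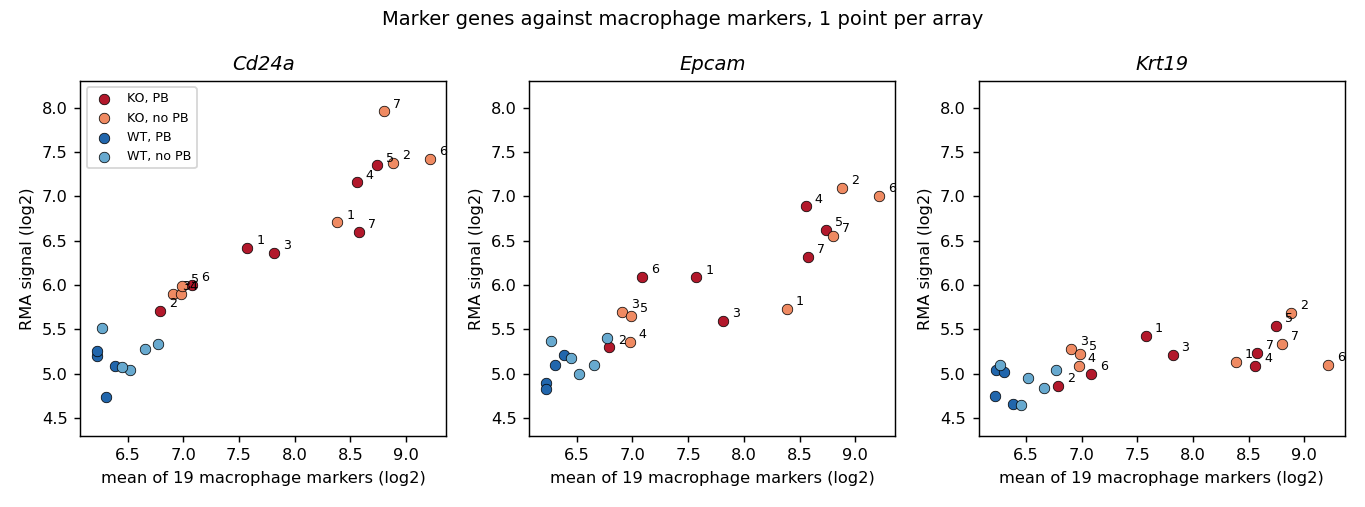
RMA signal (log2) of Cd24a, Epcam and Krt19 against the mean of 19 macrophage markers on the same array (log2); each point is 1 of 23 arrays, coloured by group, with KO arrays numbered. Within each KO group Cd24a and Epcam are highest on the 3 arrays with a macrophage mean over 8.5, while Krt19 stays between 4.65 and 5.69 across the whole range.

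As a direct measure of the spread, each KO array's root mean square distance from its group's median profile over all other tested genes was set against each marker, in 12 relations (6 genes in each of 2 groups of 7 arrays). Pearson's r ran from -0.45 to 0.61 and none passed the exact permutation test, the smallest adjusted p being 0.461. Among KO arrays with phenobarbital, Cd24a gave r = 0.53 (exact permutation p = 0.217, two-sided) and rho = 0.64 (p = 0.139), and r = 0.68 without arrays 1 and 3, the farthest from the median distance. Among those without phenobarbital it gave r = 0.59 (exact permutation p = 0.185, two-sided) and rho = 0.58 (p = 0.187), and r = 0.60 without arrays 1 and 7. Epcam gave r = 0.49 (exact permutation p = 0.264) and rho = 0.68 (p = 0.110) with phenobarbital, and r = 0.50 (p = 0.286) and rho = 0.14 (p = 0.783) without. Sox9 gave r = 0.61 (exact permutation p = 0.153) without phenobarbital. Without the 2 farthest arrays, r over the 12 relations ran from -0.43 (Krt19 without phenobarbital) to 0.95 (Sox9 without phenobarbital). Those values rest on 5 arrays each and were not tested. The distance has no sign: KO arrays 2 and 3 without phenobarbital lay at the same distance of 0.29 but on opposite sides of 0 on the first principal component, with Cd24a at 7.38 and 5.90. No correlation over the principal component is given, because the arrays fell on either side of a gap of 46.8% of its range with phenobarbital and 36.6% without. That gap set arrays 4, 5 and 7 apart with phenobarbital, and without it array 1 fell on the same side as arrays 2, 6 and 7.

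Among each other, the marker genes varied together in a single pair. As deviations from the group means over the 23 arrays, Epcam and Cd24a correlated at r = 0.83, and the other 9 of 10 pairs lay between -0.33 and 0.44. The genes most like Cd24a in these deviations were Plaat3, a phospholipase (r = 0.97), Shisa5, a membrane protein linked to apoptosis (r = 0.96), and Cd300lf, a receptor of myeloid cells (r = 0.96). Those most like Epcam were Nagk, an amino sugar kinase (r = 0.93), Mfge8, a secreted protein that bridges dying cells to phagocytes (r = 0.93), and Bex1 (r = 0.93), which was also on the list of progenitor and fetal liver genes. Such likeness was common for these 2 markers: 760 of 13821 other tested genes exceeded r = 0.8 with Cd24a and 433 with Epcam. For Krt19 no gene did, the most like being Il21r, Dusp5 and Rad51ap1 (r between 0.73 and 0.78). For Krt23 only Lclat1 did (r = 0.81), followed by Pfdn2 and Celsr3, and for Sox9 only Abitram (r = 0.83), followed by Ambp and Rab29. These points share the arrays and their normalization, and the values are a description.

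Of 28 further genes of the biliary epithelium, 21 were tested. With phenobarbital 4 were called higher and 3 lower in KO than in WT livers, and without it 5 were called higher, with a list median of 0.19 and 0.31, against 0.00 for all genes in either comparison. The share of all tested genes called higher was 11.9% with phenobarbital and 14.8% without. Tff3, a secreted mucosal peptide, read 10.22 to 12.34 in KO livers with phenobarbital and 6.04 to 7.37 in WT livers with it, a difference of 4.44 (SE 0.48, limma, adjusted p = 9.71e-07). Without phenobarbital it read 10.95 to 13.06 in KO livers and 7.93 to 10.25 in WT livers, a difference of 2.36 (SE 0.45, limma, adjusted p = 0.000717), and the groups did not overlap in either diet. Tff3 was thus also lower in WT livers with phenobarbital than in those without it (log2 change -2.60, limma, adjusted p = 0.00394). In WT livers without phenobarbital no measured marker gene read above 6.51, the highest value of Sox9, so Tff3 lay well above them. Which cells gave the Tff3 signal was not tested.

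Prom1, the surface protein CD133 of progenitor and duct cells, differed in the other direction when phenobarbital was given. It read 4.99 to 6.65 in KO livers with phenobarbital and 7.37 to 8.27 in WT livers with it, a log2 difference of -2.24 (SE 0.35, limma, adjusted p = 0.000128). In KO livers without phenobarbital it read 4.76 to 6.57, against 4.38 to 5.20 in WT livers without it. Prom1 was higher by 3.20 with phenobarbital in WT livers (limma, adjusted p = 1.02e-05), and the phenobarbital effect in KO livers was lower than that in WT livers (log2 difference -2.89, limma, adjusted p = 0.00277).

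The other biliary genes called higher in KO livers with phenobarbital were Aqp1, a water channel of cholangiocytes (0.77), Pkhd1, the protein fibrocystin of duct cilia (0.70), and Tspan8, a tetraspanin (0.59), while Cldn4, a tight junction claudin, and Slc4a2, an anion exchanger, were called lower by small amounts (-0.27 and -0.23). Without phenobarbital they were Wfdc2, a secreted protease inhibitor of epithelia (1.66), Bicc1, an RNA-binding protein of ducts and kidney tubules (0.66), Aqp1 (0.60) and Atp1b1, a subunit of the sodium pump (0.32). With phenobarbital the Wfdc2 difference was -0.08 (limma, adjusted p = 0.893), and WT livers averaged 7.43 with it against 6.36 without. Without KO arrays 2, 6 and 7, 4 of 21 were called higher in KO livers without phenobarbital, against 975 of all 13741 tested genes, and the list median was 0.04. Without those and KO arrays 4, 5 and 7, 5 were called higher and 1 lower with phenobarbital, against 1574 and 1021 of all 13630 tested genes.

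Among 16 tested genes of the Notch, YAP and TWEAK signals that act on ductular cells, 3 were called higher in KO than in WT livers with phenobarbital and 5 without it. The share of all tested genes called higher was 11.9% and 14.8%. Ccn2, a matrix protein induced by YAP, read 6.82 to 8.18 in KO livers with phenobarbital and 5.92 to 6.95 in WT livers with it, a difference of 0.97 (limma, adjusted p = 0.0134). Without phenobarbital the difference of KO from WT livers was 0.96 (limma, adjusted p = 0.00817). Wwtr1, the YAP partner TAZ, was higher in KO livers by 0.40 with phenobarbital (limma, adjusted p = 0.00899) and by 0.69 without it (limma, adjusted p = 2.71e-05). The receptor Notch1 was higher by 0.40 with phenobarbital and by 0.42 without, and the ligand Jag1 (0.49) and the receptor Notch2 (0.20) were called without phenobarbital. On the phenobarbital-free diet 1 of 15 tested genes was called higher without KO arrays 2, 6 and 7, against 975 of all 13741 tested genes.

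Of 12 tested genes of progenitors and fetal liver, 4 were called higher and 1 lower in KO than in WT livers in each diet. The share of all tested genes called higher was 11.9% with phenobarbital and 14.8% without. The calls without phenobarbital include Cd34, which read at most 3.91 on WT arrays. That lies under the filter level, which Cd34 passed through KO arrays alone. Itga6, an integrin of epithelial stem cells, read 6.50 to 7.50 in KO livers without phenobarbital and 5.35 to 5.61 in WT livers without it, a difference of 1.48 (limma, adjusted p = 2.07e-06). Sox4, a transcription factor of immature cells, was higher by 1.01 with phenobarbital and by 1.26 without. Cd44, an adhesion receptor of progenitors and leukocytes, spread from 4.99 to 7.92 in KO livers with phenobarbital and from 4.13 to 4.57 in WT livers with it, a difference of 2.28 (limma, adjusted p = 0.0373). Those WT values lay near or under the filter level (4.56 on average), so that difference has no measured size. Lgr5, a Wnt receptor gene that is itself a beta-catenin target, was lower in KO livers, with log2 differences of -1.02 with phenobarbital and -2.12 without. Without KO arrays 2, 6 and 7, 2 of 9 tested genes of the list were called higher and 1 lower on the phenobarbital-free diet. Of all 13741 genes tested there, 975 were called higher and 557 lower.

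Markers of other cells were counted in the same way, where 11.9% of all tested genes were called higher with phenobarbital and 14.8% without. Of 14 stellate cell and scar genes, 7 were called higher in KO than in WT livers with phenobarbital and 11 without, the collagen Col3a1 by 2.12 without phenobarbital (limma, adjusted p = 0.00500). Of 7 endothelial genes 5 and 6 were called higher with and without phenobarbital, of 8 neutrophil genes 1 and 2, of 4 mesothelial genes 1 and 2, of 7 lymphocyte genes 1 and 2 (with 1 called lower in each diet), and of 10 proliferation genes 0 and 1 (1 and 4 at an unadjusted p under 0.05 in limma). Pecam1, an endothelial call in both diets, and Nkg7, a lymphocyte call without phenobarbital, read at most 4.08 and 4.42 on WT arrays. Both lay under the filter level of every WT array and passed it through KO arrays alone, so their differences have no measured size. Of the 12 hepatocyte genes, 0 were called with phenobarbital by limma (5 at an unadjusted p under 0.05) and Fabp1 was called lower without it (-0.17). The 4 tested pancreas genes and 2 tested erythroid genes gave 0 calls in limma in either diet, with 0 and 1 at an unadjusted p under 0.05 with phenobarbital and 1 and 2 without it. Of 2 tested intestine genes, Fabp2 was called lower in both diets. Without KO arrays 2, 6 and 7, the calls without phenobarbital came to 1 of 19 macrophage genes, 8 of 14 stellate cell genes and 5 of 6 endothelial genes. Of all 13741 genes tested there, 975 were called higher.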

How the data were processed

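RNA from 23 liver samples of male mice was hybridised to Affymetrix mouse arrays after Qiazol extraction and 3′ IVT labelling, per the labels' protocols. The authors deposited log2 signals per probe set made by RMA with the package affy, per the submitters' processing notes; versions and background settings are not given in the sources used here. RMA compresses low signals. Precision is set by how many arrays a group holds. Of 45037 probe sets, 34945 were annotated to 1 gene, 932 to several and 9160 to none, and 34741 took their symbol from the GRCm38.p6 gene table. The probe set with the highest mean stood for a gene. Genes above the 40th percentile of the array on at least 4 arrays were fitted with limma 3.58.1 in R 4.3.3 (group means of all 4 groups, eBayes), with Benjamini-Hochberg adjustment over all 13826 genes or 24089 probe sets and a threshold of 0.05. The script was tested on simulated data. Correlations, distances and exact permutation tests used Python 3.11.15 with numpy 2.4.6 and scipy 1.17.1. The markers, the 16 gene lists and the tests were chosen with earlier results of these data known. Named were the markers and their probe sets, the 3 genes most like each marker, and from each list up to 3 called genes with the largest change, or up to 8 for the biliary and signalling lists. Alternatives covered the filter, normalization, probe set choice, prior, array weights, replicate block, groups fitted and each array left out.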

Additional observations from a re-analysis of the deposited data

Results flagged for a closer look

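Among 44 tests for a sample far from the others of its group, 1 result stood out, fewer than the 1 in 20 that chance alone would give. The value of Krt19 on KO array 2 without phenobarbital was 5.69, and the next of the 7 arrays read 5.34. The gap between them made up 0.58 of the group's range, against a critical value of 0.568 by Dixon's test. KO array 2 was also highest in Epcam and Krt23 in its group, and without it the Krt19 difference of KO from WT livers without phenobarbital was 0.28 (limma, adjusted p = 0.0762, over all alternatives 0.0262 to 0.185).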

How the results depend on the processing

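The differences of KO from WT livers kept their sign for all 5 tested marker genes in each alternative run that tested the gene. These were 32 runs for Krt23, 33 for Krt19 and 34 for Cd24a, Epcam and Sox9. The cause of the changes below was not tested. The count of called markers was 4 in place of 2 with phenobarbital under array weights and without KO arrays 2, 6 and 7 of the phenobarbital-free diet, and 6 probe sets were called in place of 3 under both. Calls rose among all genes too: without those arrays 29.1% were called changed with phenobarbital, in place of 20.0%. The differences of Krt19 (0.33) and Sox9 (0.36) with phenobarbital stayed the same there. Their SE fell from 0.126 to 0.115 and from 0.137 to 0.128, and 13741 genes were tested in place of 13826. Without phenobarbital 1 marker was called in place of 3 without those arrays, alone or together with KO arrays 4, 5 and 7 with phenobarbital (probe sets: 1 and 2 in place of 5). With array weights 3 probe sets were called without phenobarbital and 1 for the phenobarbital effect in WT livers, in place of 5 and 0, and with only the groups compared 2 were called in place of 5. Leaving out 1 array gave 2 to 3 markers and 2 to 4 probe sets with phenobarbital, and 2 to 4 markers and 3 to 7 probe sets without. Same-numbered arrays of different groups did not deviate together: of 29 pairs 5 had a correlation over 0.1, with a range from -0.70 to 0.63. With the replicate block 1 marker and 1 probe set were called with phenobarbital in place of 2 and 3, and 1 and 1 without it in place of 3 and 5. The calls lost under it were those of Epcam with phenobarbital (0.97, limma, adjusted p = 0.0765) and of Epcam (0.81, 0.0921) and Krt19 (0.37, 0.0667) without it. The small phenobarbital changes turned sign most often. In KO livers Epcam gave 0.040 with the mean of probe sets, 0.25 with array weights, 0.52 without KO arrays 2, 6 and 7 and 0.16 without both sets of arrays, and Cd24a gave 0.12, 0.39 and 0.0021 under the last 3. Krt23 gave -0.0084 with array weights, and Krt19 0.014 without KO arrays 2, 6 and 7. In WT livers Epcam gave 0.00070 with the mean of probe sets. The difference in phenobarbital effect between the genotypes turned to 0.26, 0.57 and 0.18 for Cd24a under array weights and without the first or both sets of arrays, to 0.065 for Krt19 without the first set, and to -0.011 for Sox9 with the mean of probe sets. Leaving out 1 array gave, for the phenobarbital effect in KO livers, -0.16 to 0.13 for Epcam, -0.13 to 0.0015 for Krt19 and -0.057 to 0.11 for Krt23, and in WT livers -0.12 to 0.019 for Krt19. For the difference of the effects it gave -0.20 to 0.15 for Cd24a, -0.088 to 0.052 for Krt19 and -0.052 to 0.12 for Sox9. The correlations with the distance from the group's median profile ranged, when 1 array was left out, with phenobarbital from -0.42 to 0.74 for Cd24a, -0.39 to 0.64 for Epcam, -0.35 to 0.38 for Krt19, -0.26 to 0.53 for Krt23 and -0.67 to 0.63 for Sox9. Without phenobarbital they ranged from -0.025 to 0.93 for Cd24a, -0.18 to 0.92 for Epcam, -0.28 to 0.51 for Krt19, -0.69 to 0.52 for Krt23 and -0.089 to 0.85 for Krt7. Signal over background limits Krt7, Krt23 and Sox9 probe set 1433889_at, which lay at or under the filter level.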
